A study of Mus musculus with 6 samples.

Results

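A set of 10 genes that switch integrins on or off was followed in stromal fibroblasts of the mouse mammary gland with and without working SHARPIN. They are the talins Tln1 and Tln2, the kindlins Fermt1 and Fermt2, Ilk, Itgb1bp1, Krit1, Flna, Kank1 and Kank2. The 10 were chosen for their known roles at the integrin tail or with proteins that bind it, with earlier results of these data known. They were read by symbol out of 23337 listed genes. All 10 were listed, and all 10 passed the filter on low counts that left 13442 genes to be tested.

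The mutant group held 3 libraries homozygous for cpdm, a spontaneous mutation of Sharpin that leaves the mice without the protein, and the control group held 3 wild-type libraries. All mice were C57BL/KaLawRij and 7 weeks old, and each library came from the pooled mammary glands of 3 mice. Cells freed by collagenase were enriched by centrifugation, grown in serum to confluence and lysed at passage 0 without further treatment. The labels do not say more of how the pools relate, so p-values measure the spread between these pools. Where libraries of the same replicate number were compared, p-values measure instead how far the differences within pairs vary from pair to pair. The mutation is present in every cell of these mice, so the libraries report cultured cells of mutant animals and not a loss of SHARPIN in fibroblasts alone.

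Integrins are matrix receptors that sit in the membrane in a low-affinity state until proteins bind the short tail of the beta subunit. Talin and kindlin bind that tail together to activate the receptor, while ICAP1 and filamin A compete with them for it. SHARPIN, besides its work in the linear ubiquitin chain assembly complex, binds the tail of the alpha subunit and keeps talin and kindlin away. In stromal fibroblasts, active integrins let cells grip and pull on collagen.

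Depth was even, between 13570649 and 15656196 counts assigned to genes per library. The 10 fibroblast markers all passed the filter on low counts. Their summed level was 58783 to 73554 library-scaled counts (CPM) in Sharpin-cpdm and 61916 to 83756 CPM in wild type. Markers were said to fall or rise at an adjusted p under 0.05 by edgeR, comparing libraries of the same replicate number. By that rule 3 of the 10 fell, beside 2.11% of all tested genes that fell and 0.394% that rose. A marker short of it could still go the same way in all 3 pairs, as Col3a1, Pdgfra and Plvap (lower) and Vim and Sox10 (higher) did. Endothelial markers were present as well and stood lower in the mutant: 9 of 10 fell by that rule, with a summed level of 371 to 595 CPM against 528 to 1021 CPM. Epithelial markers summed to 202 to 436 CPM in Sharpin-cpdm and 300.3 to 545 CPM in wild type, with 0 of 8 called. Pericyte markers summed to 774 to 1046 CPM against 907 to 1238 CPM (3 of 8 fell), Schwann cell markers to 66.1 to 83.1 CPM against 51.6 to 71.1 CPM (1 of 5 rose), and adipocyte markers to 29.2 to 49.2 CPM against 46.0 to 93.8 CPM. Of the 6 adipocyte markers 4 lay under 1 CPM, Lep at 0 in every library, and Fabp4, which carried most of the sum at a mean of 34.2 against 65.1 CPM, fell. Without that pairing edgeR and limma-voom called 0 of all tested genes (307 and 272 at an unadjusted p under 0.05) and DESeq2 called 10. In RNA of whole cultures, fewer cells of a type and less RNA per cell cannot be told apart.

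Sharpin itself was measured first. Its level was 10.5, 9.13 and 9.50 CPM in the mutant (libraries 1 to 3), against 24.5, 25.2 and 31.2 CPM in the controls (libraries 1 to 3). Every mutant library lay below every wild-type library, so the groups did not overlap. Mutant minus wild type was -1.49 ± 0.14 on the log2 scale (SE, 3 libraries a side) and the adjusted p was 0.272 (quasi-likelihood F-test of edgeR, Benjamini-Hochberg over every tested gene), while DESeq2 without the block gave -1.49 with an adjusted p of 1.31e-12. With the replicate number added to the same test as a block, which compares libraries of the same number, it was -1.48 ± 0.12 (adjusted p by edgeR, 0.00595).

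None of the 10 integrin regulators reached an adjusted p under 0.05 by edgeR, either without the block (0 of 10, beside 0% of all 13442 tested genes) or with it (0 of 10, beside 2.51% of all tested genes). Without the block 0 of the 10 had an unadjusted p under 0.05, beside 2.28% of all tested genes. The groups of all 10 genes overlapped, where 5.94% of all tested genes had groups that did not. The median log2 fold change of the 10 was 0.03, beside 0.00 for all tested genes, both with the block. Within same-numbered libraries, 5 of the 10 (Tln1, Tln2, Ilk, Flna and Kank2) were higher in Sharpin-cpdm in all 3 pairs, beside 22.7% of all tested genes. Itgb1bp1 and Kank1 were lower in all 3 pairs, beside 18.5% of all tested genes. With the block, 4 of the 10 (Tln1, Tln2, Flna and Kank1) had an unadjusted p under 0.05, beside 17.3% of all tested genes.

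**Figure D1:**
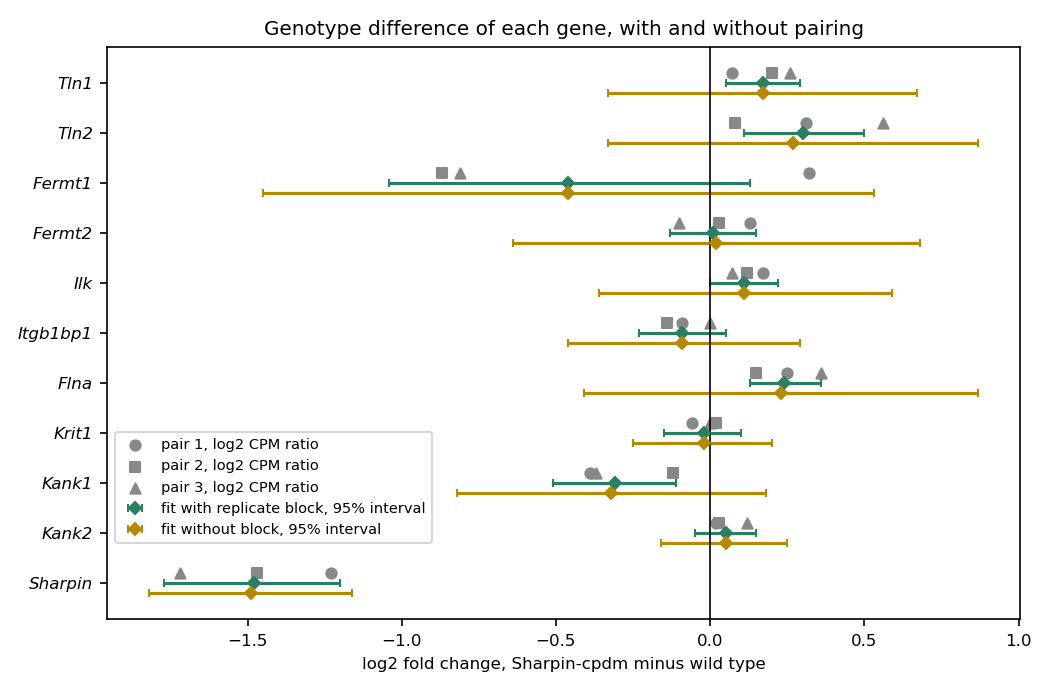
Log2 fold change, Sharpin-cpdm minus wild type, of the 10 genes and Sharpin. Grey marks are the log2 CPM ratios of the 3 same-numbered pairs, and diamonds with bars are edgeR estimates with 95% intervals, with and without the replicate block. Sharpin sits near -1.5 in both fits, while the 10 genes spread around 0, with narrower intervals under the block.

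Levels were compared between genes only per length, as CPM per kilobase of the principal annotated transcript. On that scale Flna stood highest at a mean of 284 over the 6 libraries and Fermt1 lowest at 2.06. Ilk (121), Fermt2 (105) and Tln1 (81.7) followed Flna, and the ranges of neighbours among these overlapped. The places of Ilk and Itgb1bp1 are less certain, because genes on the opposite strand overlap 85.4% and 19.1% of their transcripts. Kank2 stood at 41.8 with a range that overlapped neither neighbour. Itgb1bp1 (17.0), Krit1 (16.1) and Tln2 (15.9) had overlapping ranges, and Kank1 (5.04) lay below them. Sharpin stood at 15.6 ± 2.13 CPM per kb (mean ± SD, n = 3) in wild type, which places it beside Itgb1bp1, Krit1 and Tln2, and at 5.59 ± 0.396 CPM per kb in Sharpin-cpdm.

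**Figure D2:**
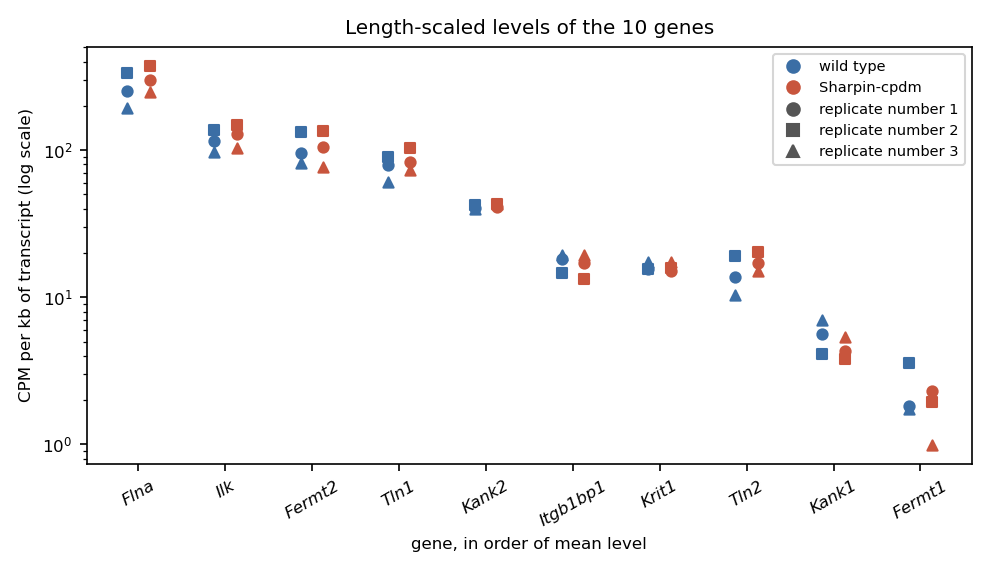
CPM per kilobase of transcript for the 10 genes (log scale), ordered by their mean, with each library as a mark coloured by genotype and shaped by replicate number. Flna leads at 194 to 374, Ilk, Fermt2 and Tln1 lie between 61.1 and 148, and Fermt1 lies between 0.994 and 3.55. The levels of Ilk and Itgb1bp1 are less certain, as genes on the opposite strand overlap them.

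Talin links the integrin tail to actin and completes activation. Tln1 (chromosome 4, 43531519 to 43562691, minus strand, mm10), the widely expressed talin, stood at 698, 869.9 and 613 CPM in the mutant (libraries 1 to 3), against 663, 755 and 512 CPM in the controls (libraries 1 to 3). Each mutant library was above its same-numbered wild-type library, yet library 3 of the mutant lay below wild-type libraries 1 and 2. The log2 fold change was 0.17 ± 0.21 without the block and 0.17 ± 0.05 with it (adjusted p by edgeR, 1 and 0.154). Its 95% interval with the block ran from 0.05 to 0.29, whose upper bound is 1.22-fold. Tln2 (chromosome 9, 67217087 to 67559703, minus strand), the second talin, stood at 207, 245 and 184 CPM in the mutant, against 167, 232 and 125 CPM in the controls. Pair 3 held the widest difference, 0.56 on the log2 scale, and pair 2 the narrowest, 0.08. The estimate was 0.27 ± 0.25 without the block and 0.30 ± 0.08 with it (adjusted p by edgeR, 1 and 0.133). With 1 library left out it ranged from 0.07 to 0.55 without the block, and with 1 pair left out from 0.19 to 0.41 with it.

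Tln1 supplied most talin transcript in every library. Its length-scaled share of both talins was 83.0%, 83.7% and 82.8% in Sharpin-cpdm libraries 1 to 3 and 85.1%, 82.5% and 85.6% in wild-type libraries 1 to 3. The groups overlapped, with means of 83.2% ± 0.484 and 84.4% ± 1.69 (SD, n = 3 per group). The exact 95% binomial interval of the unscaled share was 76.4% to 77.8% in Sharpin-cpdm library 1 and 79.1% to 80.6% in wild-type library 1. Library 2 went the other way, with 77.4% to 78.7% in Sharpin-cpdm and 75.8% to 77.2% in wild type. For library 3 the intervals were 76.1% to 77.7% and 79.6% to 81.3%. Such intervals cover counting error only. Of the stretches of 50 bases in the transcripts of Tln1 and Tln2, 0.5% and 0.4% occurred in another gene, and Creb3, which overlaps Tln1 on the other strand, shares 1.1% of its transcript.

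Kindlins bind the tail beside talin. Fermt2 (chromosome 14, 45458795 to 45530118, minus strand), which encodes kindlin-2, the kindlin of most adherent cells, stood at 346, 444 and 253 CPM in the mutant, against 316, 436 and 270.3 CPM in the controls. Its 3 pairs went both ways, at 0.13, 0.03 and -0.10 on the log2 scale. The log2 fold change with the block was 0.01 ± 0.06 (adjusted p by edgeR, 0.961), and its 95% interval ran from -0.13 to 0.15, or 0.911-fold to 1.11-fold. Fermt2 made up between 96.2% and 97.6% of the length-scaled transcript of all 3 kindlins in each library, with overlapping groups.

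Fermt1 (chromosome 2, 132904389 to 132945906, minus strand), which encodes the mainly epithelial kindlin-1, was scarce and the least even of the 10. It stood at 11.3, 9.57 and 4.89 CPM in the mutant, against 9.02, 17.4 and 8.58 CPM in the controls. The mutant was higher in pair 1, at 0.32, and lower in pairs 2 and 3, at -0.87 and -0.81 on the log2 scale. The estimate with the block was -0.46 ± 0.24 (adjusted p by edgeR, 0.404), with a 95% interval from -1.04 to 0.13. Without pair 1 edgeR gave -0.85 with the block (adjusted p 0.0146), past the threshold. Summed epithelial markers ran the same way in each pair, at 436 against 300.3 CPM in pair 1, 349 against 545 CPM in pair 2 and 202 against 378 CPM in pair 3. All 8 epithelial markers passed the filter on low counts, and their part in the Fermt1 values was not tested. Fermt3, the kindlin of blood cells, averaged 2.86 CPM in the mutant and 2.68 CPM in the controls.

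Ilk (chromosome 7, 105736592 to 105742925, plus strand) encodes integrin-linked kinase, an adaptor that kindlin recruits together with PINCH and parvin. It stood at 232, 266 and 184 CPM in the mutant, against 206, 246 and 175 CPM in the controls, higher in the mutant in each pair. The log2 fold change with the block was 0.11 ± 0.05 (adjusted p by edgeR, 0.297), with a 95% interval from 0.00 to 0.22. The count of Ilk is less certain than the others, because a transcript of Taf10 on the opposite strand covers 85.4% of the Ilk transcript in the GENCODE annotation. The kit does not mark strand, and the annotation used for counting was not given in the sources used here.

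Filamin A crosslinks actin and competes with talin for the beta tail. Flna (chromosome X, 74223461 to 74249820, minus strand) stood at 2539, 3165 and 2095 CPM in the mutant (libraries 1 to 3), against 2129.8, 2848 and 1638 CPM in the controls (libraries 1 to 3). The mutant was higher in each pair, by 0.25, 0.15 and 0.36 on the log2 scale, although the groups overlapped. Of the 10 genes it had the smallest p with the block: the estimate was 0.24 ± 0.05, a 95% interval of 1.09-fold to 1.28-fold (adjusted p by edgeR, 0.0641). Limma-voom with the block gave 0.24 with an adjusted p of 0.0436, and edgeR's test with the block and without a filter on low counts gave 0.25 with 0.0227, both past the threshold. Without the block the estimate was 0.23 ± 0.27, with an adjusted p of 1, and ranged from 0.03 to 0.47 with 1 library left out.

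ICAP1, the product of Itgb1bp1 (chromosome 12, 21240825 to 21286284, minus strand), holds the beta-1 tail in its inactive form. Itgb1bp1 stood at 32.6, 25.6 and 37.3 CPM in the mutant, against 34.8, 28.2 and 37.5 CPM in the controls. The mutant was lower in each pair, by -0.09 and -0.14 on the log2 scale in pairs 1 and 2 and by under the second decimal in pair 3. The log2 fold change with the block was -0.09 ± 0.06 (adjusted p by edgeR, 0.494), with a 95% interval from -0.23 to 0.05. Asap2 on the other strand covers 19.1% of its transcript, so its count is also less certain. Krit1 (chromosome 5, 3803184 to 3845564, plus strand) encodes a partner that pulls ICAP1 off the integrin. It was among the steadiest of the 10, at 43.9, 46.0 and 51.3 CPM in the mutant, against 45.7, 45.5 and 51.3 CPM in the controls. Its log2 fold change with the block was -0.02 ± 0.05 (adjusted p by edgeR, 0.842), with an interval of 0.903-fold to 1.07-fold.

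KANK proteins bind the talin rod and tie adhesions to microtubule anchors at the cell cortex. Kank1 (chromosome 19, 25236975 to 25434496, plus strand) stood at 24.3, 21.4 and 30.4 CPM in the mutant, against 31.8, 23.2 and 39.4 CPM in the controls. The mutant was lower in each pair, by -0.39, -0.12 and -0.37 on the log2 scale, with overlapping groups. The estimate with the block was -0.31 ± 0.08 (adjusted p by edgeR, 0.132), with an interval of 0.702-fold to 0.926-fold. Without the block it was -0.32 ± 0.21, and ranged from -0.49 to -0.13 with 1 library left out. Kank2 (chromosome 9, 21766784 to 21798744, minus strand) spanned the narrowest range of the 10 across all libraries, at 207, 219 and 219 CPM in the mutant, against 204, 214 and 201 CPM in the controls. Its log2 fold change with the block was 0.05 ± 0.04 (adjusted p by edgeR, 0.616). The share of Kank2 in the length-scaled transcript of both genes was 90.5%, 92.0% and 88.9% in Sharpin-cpdm and 87.8%, 91.2% and 85.1% in wild type. It was higher in the mutant in 3 of 3 pairs, with means of 90.5% ± 1.5 and 88.0% ± 3.03 and overlapping groups. The difference of 2.46 points was 4.04 without wild-type library 2 and 1.01 without wild-type library 3.

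**Figure D3:**
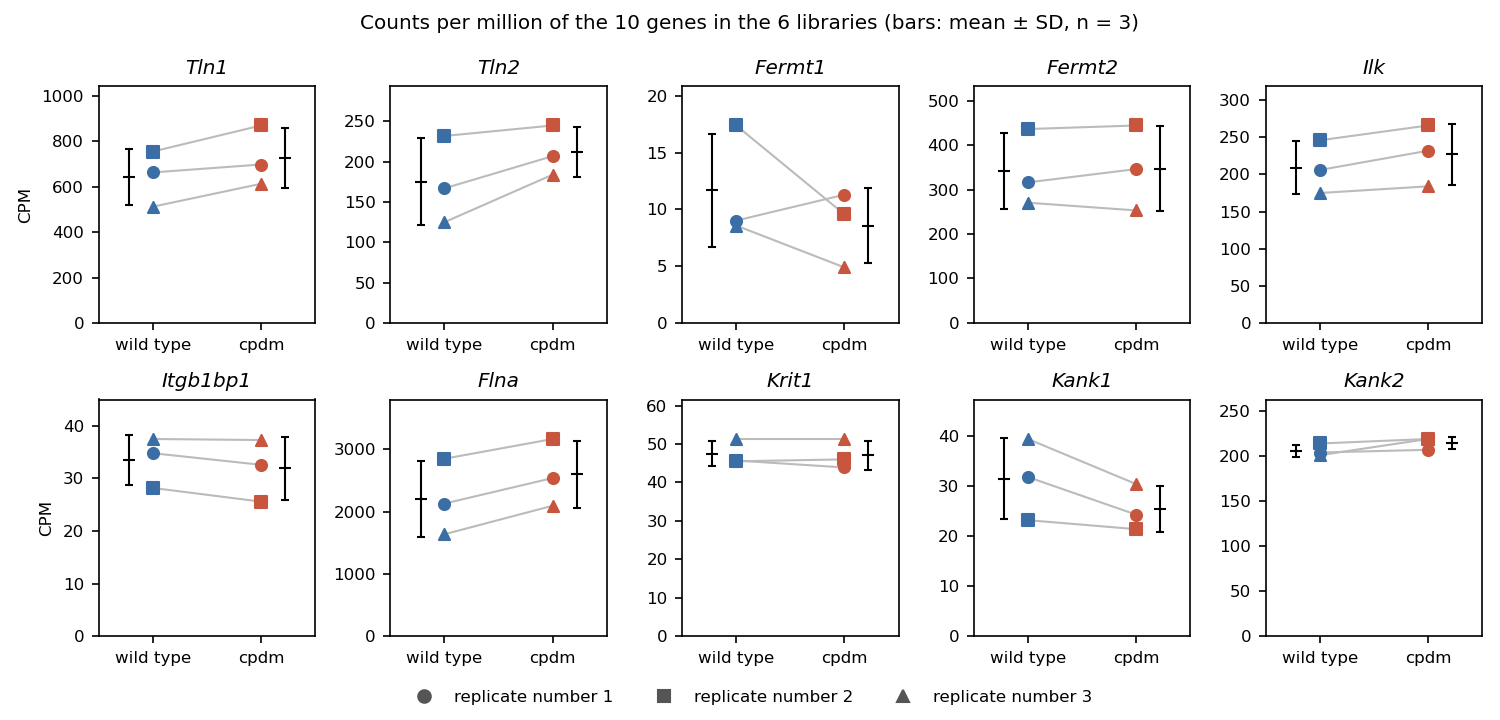
CPM of each of the 10 genes in wild-type and Sharpin-cpdm libraries, each panel starting at 0, with grey lines joining libraries of the same replicate number and bars for mean ± SD (n = 3). The groups overlap in every panel. In all 3 pairs the lines of Flna, Tln1, Tln2, Ilk and Kank2 slope up and those of Kank1 and Itgb1bp1 down, some of them slightly.

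For the 9 genes besides Fermt1, the 95% intervals of the genotype difference with the block all lay between -0.51 and 0.50 on the log2 scale, or 0.702-fold and 1.41-fold. Without the block they lay between -0.82 and 0.87. These intervals are those of single genes and are not adjusted for the number of genes.

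The replicate number went with more of the spread of each of the 10 genes than the genotype did. Of the variance of log2 CPM over the 6 libraries, the replicate number took a median of 86.7% for the 10 genes and the genotype 12%, beside 72.9% and 8.26% for all tested genes. With 3 replicate numbers and 2 genotypes, the replicate number has more degrees of freedom and would take the larger share of noise alone. Tln1, Tln2, Fermt2, Ilk and Flna were highest in library 2 and lowest in library 3 in both genotypes, a pattern of 5 of the 10 genes and of 12.7% of all tested genes. Itgb1bp1 and Kank1 showed the reverse in both genotypes, highest in library 3 and lowest in library 2, as did 17.9% of all tested genes. Fermt2 was 1.61-fold higher in library 2 than in library 3 of the wild type and 1.76-fold higher in the mutant. Flna was 1.74-fold and 1.51-fold higher. Kank1 stood at 0.589 and 0.704 of its library 3 level in library 2, and Itgb1bp1 at 0.754 and 0.685. The labels do not say what a replicate number marks. Summed fibroblast markers were lowest in library 2 of both genotypes (58783 and 61916 CPM) and highest in library 3 (73554 and 83756 CPM). Not every fibroblast marker had that order. Col3a1, Pdgfra, Lum and Dcn did in both genotypes, but Col1a1 and Col1a2 were highest in library 1 of both, and Thy1 and Vim in library 2 of both. Summed macrophage and other blood cell markers were highest in library 2 of both genotypes (337 and 391 CPM) and lowest in library 1 (134 and 69.8 CPM). Lyz2 alone carried most of the sum in library 2, at 263 and 295 CPM. In the mutant Ptprc, Cd68, Itgam and Itgb2 were highest in library 3, and Emr1 and Csf1r in library 2. In the controls each of these was highest in library 2. The part of the fibroblast or blood cell markers in the pattern was not tested.

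**Figure D4:**
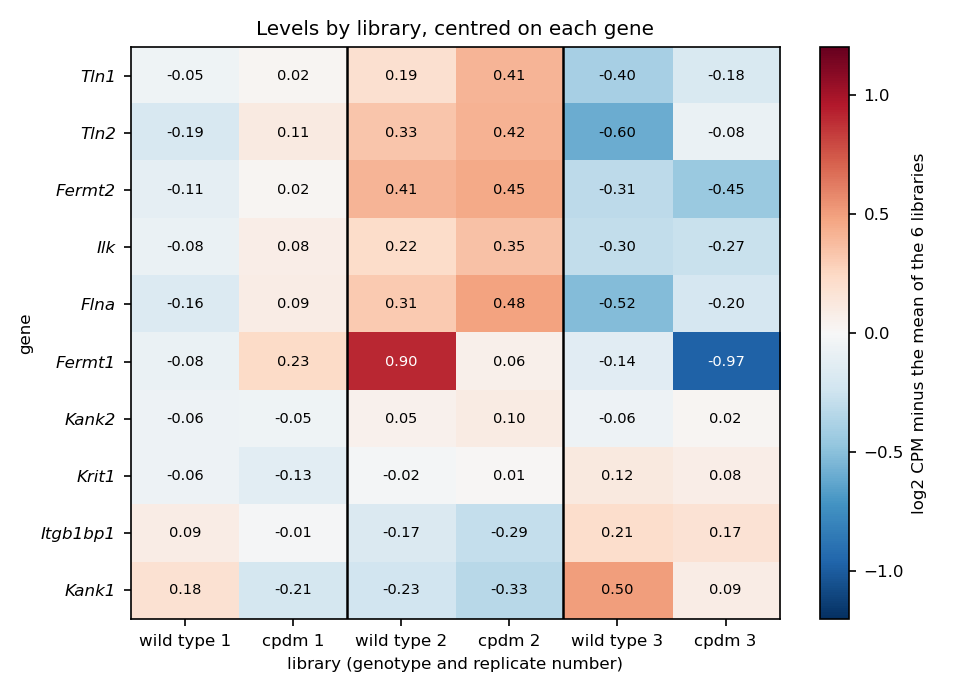
Log2 CPM of the 10 genes in each library minus the gene's mean over the 6 libraries, with same-numbered libraries side by side and values printed in the cells. Tln1, Tln2, Fermt2, Ilk and Flna are above their mean in both libraries of number 2 and below it in both of number 3, while Itgb1bp1 and Kank1 are the reverse.

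As several activators varied together across libraries, the RefSeq promoter windows (GRCm38.p6, 250 bases before to 50 after the start) were searched on both strands for the CArG box that serum response factor binds and for GGAATG, the motif of TEAD factors. Entries were found for 9 of the 10 genes, in 11 windows. A CArG box was found in 1 gene, Fermt2, and in 1.63% of all 32851 windows, and GGAATG in 1 gene, Flna, and in 14.7% of all windows. Neither window held both motifs. Both windows are printed because they hold the matches, with the matched letters in capitals, at chr14:45530016-45530315 (minus strand) for Fermt2, where the match begins 204 bases before the start site, and chrX:74246485-74246784 (minus strand) for Flna, where it begins 146 bases before the start site. The Flna window lies inside the GENCODE gene body. A match is a description of letters and not a measured site.
Fermt2: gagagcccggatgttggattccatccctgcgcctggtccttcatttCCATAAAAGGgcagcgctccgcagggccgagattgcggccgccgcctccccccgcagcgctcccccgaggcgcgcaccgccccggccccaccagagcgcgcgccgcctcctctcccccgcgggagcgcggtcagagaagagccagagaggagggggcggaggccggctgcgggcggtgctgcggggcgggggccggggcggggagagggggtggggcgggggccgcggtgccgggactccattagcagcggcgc
Flna: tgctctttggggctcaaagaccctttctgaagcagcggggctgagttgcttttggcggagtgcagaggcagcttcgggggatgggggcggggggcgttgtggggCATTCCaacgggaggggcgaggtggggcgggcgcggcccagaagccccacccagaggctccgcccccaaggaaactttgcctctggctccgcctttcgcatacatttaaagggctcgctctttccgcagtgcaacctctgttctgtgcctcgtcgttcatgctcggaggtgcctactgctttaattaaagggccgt

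The expression profile of Tln1 over the 6 libraries was most like those of Bop1, Tgfb1i1 and Nup85, with a Pearson r of log2 CPM of 0.999, 0.998 and 0.998. Fermt2 was most like Srp9, Gtpbp4 and Cdkn2b (0.999, 0.999 and 0.998), and Itgb1bp1 most like Tbck, Pygl and Dync2h1 (0.998, 0.997 and 0.997). These are descriptions over 6 libraries that share their pairs, and between 1115 and 1259 of 10300 candidate genes had an r over 0.9 with each.

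Around the 10, a list of 70 other genes of integrin activation was read from the same test, of which 68 were listed and all 68 were tested. With the block 2 rose, 3 fell and 63 did not pass, beside 0.394% of all tested genes that rose and 2.11% that fell. Without the block edgeR called 0 of the 68 and DESeq2 1, beside 0 and 10 of all 13442 tested genes. An unadjusted p under 0.05 by edgeR was held by 19 of the 68 with the block, beside 17.3% of all tested genes. Without the block 8 of the 68 held it, beside 2.28%. The groups of 10 of the 68 did not overlap, beside 5.94% of all tested genes. The median log2 fold change of the 68 with the block was -0.05, beside 0.00 for all tested genes. Sharpin is 1 of the 3 that fell.

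Dok1, a docking protein that competes with talin for the beta tail, rose by 0.36 ± 0.06 on the log2 scale with the block (adjusted p by edgeR, 0.0446). It stood at 85.0, 86.5 and 59.8 CPM in the controls and 116, 98.4 and 84.1 CPM in the mutant (libraries 1 to 3 each). The mutant was higher in every pair while the groups overlapped. Itgb3, the beta-3 integrin subunit, had a log2 fold change of -0.42 ± 0.04 (adjusted p by edgeR, 0.0103), from 154, 177 and 147 CPM to 117, 132 and 110.3 CPM, and its groups did not overlap. Kank3, a KANK paralogue of vessels, had -0.69 ± 0.10 (adjusted p by edgeR, 0.0255), from 10.4, 14.3 and 21.3 CPM to 6.93, 8.41 and 13.4 CPM. Beside it, summed endothelial markers stood at 528, 892 and 1021 CPM in the controls and 371, 468 and 595 CPM in the mutant (libraries 1 to 3 each), and their part in the Kank3 value was not tested. Without the block the adjusted p of all 3 was 1. Each of these calls also ended when pair 2 or pair 3 was left out. Without pair 2 the adjusted p was 0.0507 for Dok1, 0.0567 for Itgb3 and 0.120 for Kank3, and without pair 3 it was 0.216, 0.0658 and 0.176.

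The partners of the 10 that were read beside them mostly stayed short of the threshold. Of the RAP1 route that brings talin to the membrane, 0 of 14 passed. Yet 12 of the 14 had a log2 fold change under 0 with the block, beside 6790 of all 13442 tested genes. The median of the 14 was -0.1, beside 0.00. An unadjusted p under 0.05 by edgeR with the block was held by 4 of the 14, beside 17.3% of all tested genes. The groups of 2 did not overlap, beside 5.94%. Rap1b, the most abundant gene of the route, had a log2 fold change of 0.04 ± 0.05 with the block. Of the ILK complex and kindlin partners 0 of 9 passed, with vinculin (Vcl), which strengthens talin's hold on actin, at 0.11 ± 0.05. Of the KRIT1 complex 0 of 3 passed, with its membrane anchor Heg1 at 0.19 ± 0.06, and of the KANK cortical complex 0 of 10, with Phldb2, an anchor of the cortical platform whose groups did not overlap, at 0.15 ± 0.05. Among tail competitors the most abundant, Tns1 (tensin-1), had 0.05 ± 0.04. Of 18 integrin subunits Itgb3 alone passed. With the block 14 of the 18 had a log2 fold change under 0, beside 6790 of all 13442 tested genes. Their median was -0.19, beside 0.00 for all tested genes. An unadjusted p under 0.05 by edgeR with the block was held by 6 of the 18, beside 17.3% of all tested genes. The groups of 4 did not overlap, beside 5.94%. Itgb1, the beta-1 subunit on which ICAP1 acts, stood at 2354, 3182 and 2146 CPM in the mutant, against 2065, 3245 and 1981 CPM in the controls. Its difference on the log2 scale was 0.08 ± 0.05. Of the paralogues read beside the 10, Flnc, filamin C, had 0.01 ± 0.16.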

How the data were processed

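RNA of 6 fibroblast cultures was sequenced from TruSeq RNA v2 libraries, per the labels' protocols. The submitters' processing notes name HTSeq 0.5.4p3, TopHat2 2.0.10, bcl2fastq 1.8.4 and the build mm10. The authors deposited whole-read counts per gene symbol. The 5 summary rows, between 48.8% and 51.2% of a table, were left out.

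CPM are counts scaled to the same total over genes in every library. Tests used edgeR 4.0.16 in R 4.3.3 (quasi-likelihood F-test, two-sided, filterByExpr, TMM factors between 0.969 and 1.03, Benjamini-Hochberg over 13442 genes), with limma 3.58.1 and DESeq2 1.42.0 as alternatives. SE is the log2 fold change over the square root of F. Lengths, coordinates and overlaps come from GENCODE M21 (GRCm38, the same assembly as mm10), using the longest APPRIS principal transcript.

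The labels give both groups replicate numbers 1 to 3. Deviations from group means, correlated across genes, were 0.457, 0.809 and 0.737 for same-numbered libraries and between -0.691 and 0.00676 otherwise. Deviations cancel out within a group, so the low values otherwise follow in part from the high ones by construction. Pairing was assumed from the correlations of same-numbered libraries, and so from the data and not the labels. The tests were checked on simulated counts. There edgeR without the block missed most of the smaller changes, and edgeR with the block found most of them, with a few false calls. Libraries of a group differed by more than sampling noise (chi-square per degree of freedom 16.9 to 85.2).

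The 10 genes and the lists were chosen with earlier results of these data known, as were the motifs. Besides the 10 and Sharpin, pathway genes were named if called (1 is not reported here), or as the most abundant of their sub-list, and the 3 genes most like Tln1, Fermt2 and Itgb1bp1 in profile had a mean of at least 5 CPM. Log2 CPM has a prior count of 2.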

Additional observations from a re-analysis of the deposited data

How the results depend on the processing

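Over 200 recomputed values of the 10 genes, 186 kept their direction and side of the threshold, 3 passed it (Flna in 2 settings and Fermt1 without pair 1) and 11 changed sign, all with a library or pair left out. Ranges over those were -0.01 to 0.32 for Tln1, -0.23 to 0.26 for Fermt2 (with the block, -0.05 without pair 1), -0.04 to 0.26 for Ilk, -0.20 to 0.03 for Itgb1bp1 and -0.07 to 0.03 for Krit1. Of the 10 genes 1 was called by limma-voom with the replicate block and 1 by edgeR with the block and no filter, and between 0 and 1 with a library or pair left out. Over all genes, the counts with the replicate block were 337 (edgeR), 341 (DESeq2), 379 (limma-voom), 336 (RLE factors), 365 (gene-count totals) and 502 (no filter), DESeq2 without the block called 10, and leaving out libraries or pairs gave 0 to 673 (with the block, 673 without pair 1, 128 without pair 2 and 44 without pair 3). The matching counts of pathway genes were 5, 5, 7, 5, 7 and 10 with the block and 1 by DESeq2 without it, with 0 to 10 when libraries or pairs were left out. The cause of these differences was not tested. With the filter on low counts, the block changed no call among the 10 genes in edgeR's test on all 6 libraries. The genotype difference in share ranged, with 1 library left out, from -2.21 to -0.637 points for Tln1 among talins, 0.062 to 0.787 for Fermt2 among kindlins and 1.01 to 4.04 for Kank2 of Kank1 and Kank2. On the length of all exons, an alternative chosen after seeing the data, it was -1.03, 0.665 and 2.37 points. Depth limits Fermt1 most, at 73 to 273 counts per library.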
